A study of Mus musculus with 2 samples.

Results

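H2-T23, H2-T22, H2-T24, H2-T10, H2-Q4, H2-Q6, H2-Q7, H2-M3 and Cd1d1 are mouse genes of non-classical MHC class I molecules, and they are described here across the cell types of a subcutaneous tumour. They were taken by name from the gene rows of a single-cell RNA-seq count table of 27998 genes. Of the 9 genes, 8 were measured, and H2-T10 was not analysed here. The tested library came from C57BL/6J mice labelled CD94-KO and the other from WT C57BL/6J mice, both aged 6 to 8 weeks and bearing subcutaneous tumours. The labels give 1 library per genotype, and the series text gives 5 tumour-bearing mice behind the data of each, with no label that separates the mice. Live cells were sorted on CD45, the leukocyte surface protein encoded by Ptprc, and counted as UMIs (molecule tags, each counted once) at the 3′ end of transcripts. The deleted stretch of the CD94 gene, the tumour line and the number of days of growth are not given in the sources used here.

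Classical MHC class I molecules show peptides to CD8 T cells, while the non-classical molecules vary little between individuals and mostly serve specialised receptors. Qa-1, encoded by H2-T23, is the mouse counterpart of human HLA-E: it holds a peptide cut from the leader of other class I proteins and is bound by CD94 paired with NKG2A, an inhibitory receptor, or with NKG2C or NKG2E. H2-Q6 and H2-Q7 encode forms of Qa-2, H2-T22 and H2-T10 encode ligands of some gamma-delta T cell receptors, H2-M3 presents formylated peptides of bacteria and mitochondria, and CD1d, encoded by Cd1d1, presents lipids to natural killer T cells. H2-Q4 encodes another molecule of the Q region (Qb-1), and no role is given here for H2-T24.

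The peptide that Qa-1 is known to hold best in C57BL/6 mice comes from the leader of H2-D1, so the leader bases are shown to place H2-T23 among its relatives. The bases are GENCODE M21 coding sequence on GRCm38, 5′ to 3′ on the coding strand, and code for 8 residues each. The H2-D1 stretch codes for residues 4 to 11 and lies in the coding part of its gene at chr17:35263123-35263146, plus strand. The peptide's first residue is left out, since the protein of H2-K1 and of some other relatives begins at its second. The other lines give, without gaps, the 8 residues near the start of each protein that share most with it, at chr17:35470116-35470139 (plus) for H2-Q10, chr17:34000234-34000257 (minus) for H2-K1, chr17:35439221-35439244 (plus) for H2-Q7 and chr17:36032646-36032669 (minus) for H2-T23. Capitals mark bases that differ from H2-D1.
H2-D1: atggctccgcgcacgctgctcctg
H2-Q10: atggcGccgcgcacgctgctcctg
H2-K1: atggTAccgTgcacgctgctcctg
H2-Q7: atggctcTAACAaTgctgctcTtg
H2-T23: atgTTGcTTTTTGcCcACTtGctT
H2-Q10 shared 8 of 8 residues with H2-D1 and differed at 1 base. H2-K1 shared 6 residues and differed at 3 bases. Of the measured genes, H2-Q6 shared 6 residues, H2-Q4 and H2-Q7 shared 5, and H2-T23, H2-T22, H2-T24, H2-M3 and Cd1d1 shared 3 at their best placing.

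Promoters are shown because levels within a cell type are set against interferon targets further on. RefSeq promoters on GRCm38.p6, from 250 bases before to 50 bases after a gene's start, were found for H2-T23, H2-T22, H2-Q4, H2-Q6, H2-Q7 and H2-M3. They were searched on both strands for a motif bound by interferon regulatory factors, GAAA followed by any 2 bases and GAAA, which 3.44% of 32851 promoters of this length hold. It was found once in H2-T23 (chr17:36032652-36032951, minus strand), once in H2-T22 (chr17:36042693-36042992, minus strand) and once in B2m, the light chain gene (chr2:122147437-122147736, plus strand), where it stands in capitals. It was not found in the windows of H2-Q4, H2-Q6, H2-Q7, H2-M3, H2-D1 or H2-K1, of which H2-Q7 (chr17:35438905-35439204, plus strand) is shown. Each of these windows does hold TTTCACTTCT, which departs only in its last letters from the motif read on the other strand. Lacking the motif here thus means lacking its exact letters. A further motif of interferon-gamma signalling, the gamma-activated site (TTC followed by any 3 bases and GAA, held by 8.3% of promoters), was found among these 9 genes in H2-M3, 209 bases before its start. CCAAT, which 37.4% of promoters hold, was found in the windows of all 9, and TGACG, which 20.8% hold, in those of all but H2-T23 and H2-Q6.
H2-T23: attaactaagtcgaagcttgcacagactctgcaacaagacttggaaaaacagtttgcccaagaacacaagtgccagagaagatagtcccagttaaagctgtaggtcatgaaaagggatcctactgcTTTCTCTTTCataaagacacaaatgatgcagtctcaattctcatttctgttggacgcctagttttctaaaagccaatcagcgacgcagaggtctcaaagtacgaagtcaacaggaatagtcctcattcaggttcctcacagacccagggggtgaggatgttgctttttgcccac
H2-T22: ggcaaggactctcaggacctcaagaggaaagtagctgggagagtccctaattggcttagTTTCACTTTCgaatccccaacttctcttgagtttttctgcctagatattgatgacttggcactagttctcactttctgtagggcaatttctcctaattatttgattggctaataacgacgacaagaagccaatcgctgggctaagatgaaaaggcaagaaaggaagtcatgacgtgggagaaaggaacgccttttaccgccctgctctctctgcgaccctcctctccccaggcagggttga
B2m: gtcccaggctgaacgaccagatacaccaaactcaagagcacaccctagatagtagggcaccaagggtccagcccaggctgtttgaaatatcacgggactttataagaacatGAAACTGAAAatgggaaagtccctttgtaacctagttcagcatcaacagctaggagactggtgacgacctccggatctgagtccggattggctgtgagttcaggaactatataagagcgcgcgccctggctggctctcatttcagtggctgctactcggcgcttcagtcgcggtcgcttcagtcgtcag
H2-Q7: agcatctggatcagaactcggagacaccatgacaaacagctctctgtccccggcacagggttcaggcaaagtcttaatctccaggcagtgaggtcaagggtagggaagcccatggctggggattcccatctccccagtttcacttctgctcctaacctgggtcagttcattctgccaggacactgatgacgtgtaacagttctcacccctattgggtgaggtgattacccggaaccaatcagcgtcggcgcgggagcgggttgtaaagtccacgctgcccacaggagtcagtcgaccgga
The capitalised motif began 124 bases before the start of H2-T23 and 191 bases before that of H2-T22. A match is a stretch of letters, not a measured binding site.

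The genes lie on chromosome 17 apart from Cd1d1. In GENCODE M21, H2-T23 (ENSMUSG00000067212) has 7 exons at chr17:36029773-36032855 on the minus strand, H2-T22 lies at chr17:36037128-36042747 (minus), H2-Q7 at chr17:35439155-35443773 (plus), H2-M3 at chr17:37270220-37274484 (plus) and Cd1d1 at chr3:86995834-86999441 (minus). Near-identical stretches limit some counts. Of the 90-base windows in the last 500 bases of each transcript, 26.5% in H2-T22 also occur in H2-T10, so H2-T22 values are uncertain between the pair. The share was 13.4% in H2-T23, 10.9% in H2-Q6, 9.5% in H2-Q4 and 6.1% in H2-Q7, and 0 in H2-T24, H2-M3 and Cd1d1.

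The CD94-KO library held 5175 barcodes and 46107433 UMIs, against 5358 barcodes and 40261366 UMIs in the WT library. After filtering, 4765 CD94-KO cells with a median of 7953 UMIs and 4571 WT cells with a median of 4845 UMIs remained, and the libraries shared 8 barcode strings. Cells were assigned by raw marker UMIs to 13 gates, each called by the cell type its markers are known for, which took 66.8% of the cells kept in CD94-KO and 45.5% of those kept in WT. A collagen-rich gate, whose rule required low Ptprc, held 60 CD94-KO and 134 WT cells. Its Ptprc stood at 11.51 and 8.28 CPM (UMIs per 1000000 UMIs of the gate). Such cells were found although the sort was on CD45 and its purity is stated in the labels to be above 90%. Klrd1, the gene of CD94, stood at 274 CPM in CD94-KO, against 608 CPM in WT NK-like cells, a ratio of 0.45 (95% interval 0.419 to 0.484). Klrd1 was thus lower but not absent, and since the deleted part is not given, its 3′ counts do not check the label.

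H2-T23 was found in all 13 gates of both libraries, with its highest level in plasmacytoid dendritic (pDC-like) cells and its lowest in collagen-rich cells. In pDC-like cells, known as strong type I interferon producers, it stood at 894 CPM in the CD94-KO library and 829.9 CPM in the WT library. Collagen-rich cells had 50.6 and 43.4 CPM, so the gates spanned 17.7-fold in CD94-KO and 19.1-fold in WT. Exact Poisson 95% intervals set the pDC-like level apart from the next gate in both libraries, at 800 to 996 CPM in CD94-KO, against 750 to 916 CPM in WT.

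The other gates lay between these ends. CD94-KO levels were 502 CPM in monocyte-like, 501.5 in IL-17 gamma-delta T-like, 497 in Treg-like and 494 in mregDC-like cells, the last being mature dendritic cells marked by Ccr7 and Fscn1. The same gates had 423, 551, 447 and 413 CPM in WT. The CD94-KO library further had 434 CPM in cDC2-like, 416 in macrophage-like, 413 in CD4 T-like and 334 in CD8 T-like cells, against 437, 335, 424 and 276 CPM in WT. B-like, neutrophil-like and NK-like cells were the lowest of the gates between the ends, with 323, 274 and 236 CPM in CD94-KO. In WT they had 248, 221 and 229.9 CPM, where B-like and neutrophil-like cells rest on 11 and 14 cells. Of 12 neighbouring pairs in the order, the intervals were apart in 2 in CD94-KO and in 4 in WT, so most neighbours did not differ beyond counting error. Gates further apart in the order could differ. Monocyte-like cells had intervals of 485 to 519 CPM in CD94-KO and 402 to 444 CPM in WT. Those of NK-like cells were 222 to 251 and 214 to 246 CPM.

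**Figure D1:**
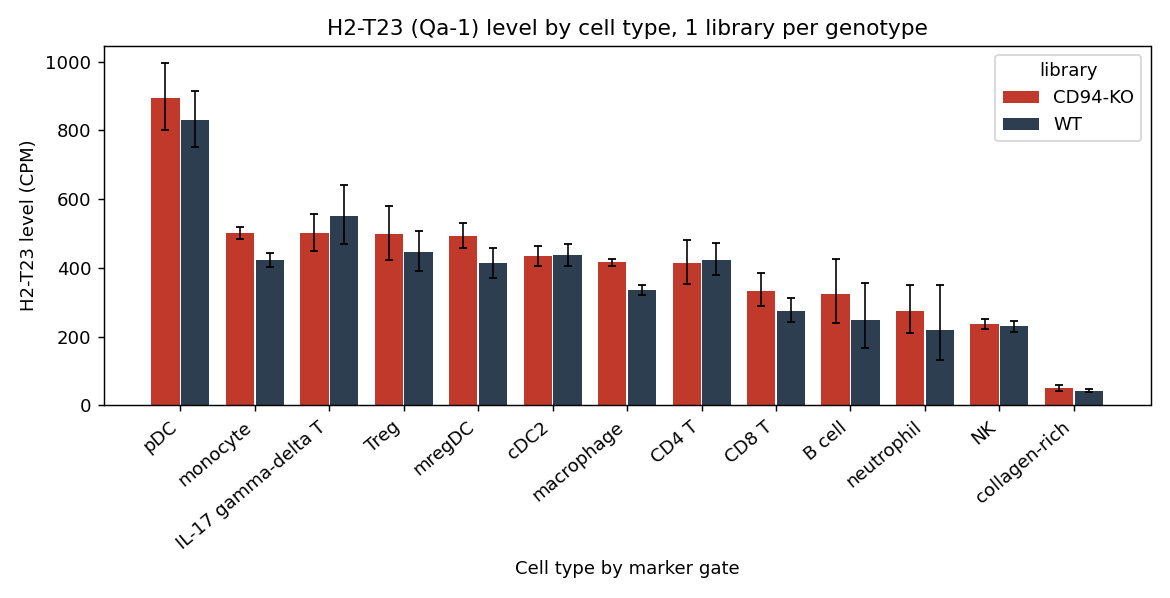
H2-T23 level in CPM (vertical axis) in each gate (horizontal axis), CD94-KO library left of WT, with exact Poisson 95% intervals that cover counting error only. pDC-like cells stand at 894 and 829.9 CPM, collagen-rich cells at 50.6 and 43.4 CPM, and the other gates between 221 and 551 CPM.

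Set against the other immune gates of the same library pooled, pDC-like cells had 2.16 times the H2-T23 level in CD94-KO (893.6 against 414.6 CPM, interval 1.93 to 2.40), against 2.36 times in WT (829.9 against 351.2 CPM, interval 2.13 to 2.61). At least 1.5-fold higher in pDC-like cells were 4 of the 8 genes in CD94-KO, against 6 in WT, where 27.4% and 27.7% of all genes tested were higher, and H2-T23, H2-T24, H2-Q7 and H2-M3 were among them in both. The call of H2-T24 rests on 5 and 3 UMIs in these cells. H2-Q6 and Cd1d1 were lower in both, where 31.8% and 29.8% of all genes were lower. Interferon-gamma targets went the other way in the same cells: 11 of 11 listed genes in CD94-KO and 9 of 11 in WT were at least 1.5-fold lower. H2-T23 was thus highest in cells with low levels of these targets.

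NK-like cells, which carry the Qa-1 receptors, were below the other immune gates in H2-T23. The level was 236.1 against 450.0 CPM in CD94-KO, a ratio of 0.525 (0.491 to 0.560), and 229.9 against 391.2 CPM in WT, a ratio of 0.588 (0.545 to 0.632). H2-T23, H2-T24 and Cd1d1, 3 of 8 genes, were at least 1.5-fold lower in both libraries, where 25.2% of all genes in CD94-KO and 27.4% in WT were lower. H2-Q4, H2-Q6 and H2-Q7 were at least 1.5-fold higher in both, where 28.2% and 20.4% of all genes were higher. Klrc1, which encodes NKG2A, stood at 153 and 172 CPM in these NK-like cells and at 286 and 273 CPM in CD8 T-like cells of CD94-KO and WT.

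Shares of cells with an H2-T23 UMI depend on depth and were therefore also taken at equal depth. H2-T23 had a UMI in 97.1% of CD94-KO and 95.7% of WT pDC-like cells, and in 78.3% and 58.2% of collagen-rich cells, whose median depth of 42895 and 48428 UMIs was the highest of all gates. After thinning each cell to 1000 UMIs, the shares were 44.1% and 63.0% in pDC-like, 31.5% and 28.1% in macrophage-like, 21.7% and 21.1% in NK-like and 8.62% and 3.82% in collagen-rich cells. Treg-like cells had 55.3% and 34.9%, so at equal depth pDC-like cells were highest in WT but not in CD94-KO. Collagen-rich cells had the lowest thinned share of the 13 gates in both libraries. Per cell, without correction for depth, they held 2.42 and 2.11 UMIs of H2-T23 in CD94-KO and WT. NK-like cells held 1.8 and 2.07 per cell and macrophage-like cells 4.88 and 4.02. The low H2-T23 level of collagen-rich cells is thus relative to their total UMIs.

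In collagen-rich cells, H2-T23 stood at 50.6 against 420 CPM in the pooled immune gates in CD94-KO and at 43.4 against 363 CPM in WT. The ratio was 0.12 in both, with intervals of 0.101 to 0.142 and 0.106 to 0.135. With each cell weighed the same it was 0.225 in CD94-KO, against 0.117 in WT, so the likeness of the libraries holds for pooled UMIs. Collagen-rich cells carried Col3a1 at 1090 and 626 CPM and Sparc at 1400 and 978 CPM. Of 4 genes listed for pericytes or smooth muscle, Cspg4 stood at 91.4 and 57.8 CPM, while Rgs5, Myh11 and Acta2 had at most 1.74 CPM. Melanocyte, epithelial and endothelial markers were at most 4.91 CPM each, so the gate is called by its leading genes. The highest, endothelial Egfl7, had 4.19 and 4.91 CPM against 0.427 and 0.202 CPM in the immune gates. Pecam1, Cdh5 and Kdr of the same list lay below their immune levels. The cycling genes Mki67, Top2a and Birc5 summed to 936 and 886 CPM, against at most 214 CPM in any other gate. The origin of the collagen-rich cells was not tested.

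Some other immune genes were scarcer in the collagen-rich cells than H2-T23 when each is set against its immune level. Laptm5, Coro1a, Lyz2 and Cd74, genes of leukocytes or of antigen-presenting cells, stood at 0.979% to 2.26% of their immune levels. H2-T23 stood at 12.0% in both libraries. Ptprc, at 1.39% in CD94-KO and 1.12% in WT, was kept low by the rule of the gate itself. Not all immune markers were as scarce. Summed NK markers stood at 136 (CD94-KO) and 194 CPM (WT) in collagen-rich cells, above macrophage-like cells at 22.3 and 31.6 CPM. Summed mregDC markers stood at 114 and 102 CPM, above 57.5 and 52.8 CPM. Summed macrophage markers were far lower, at 18.1 and 16.3 CPM against 3030 and 3130 CPM. Shares of the immune level were not taken for these sums. H2-T23 was at 0 in 13 of 60 CD94-KO cells (21.7%) and 56 of 134 WT cells (41.8%), while H2-D1 had a UMI in all but 1 cell of each library. By pooled UMIs, Qa-2 genes were close to the range of the leukocyte genes. H2-Q7 stood at 7.33 and 6.75 CPM, a ratio to the immune gates of 0.020 (0.0124 to 0.0306) and 0.0152 (0.0111 to 0.0205). Its low level depends on the weighting, since with each cell weighed the same it was 47.5 CPM in CD94-KO, against 15.3 CPM in WT, still the lowest of the 13 gates. H2-Q6 had 3.49 and 4.76 CPM, ratios of 0.0251 and 0.0289, a little above that range.

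By CPM, a share of all UMIs, H2-T22, H2-Q4 and H2-M3 were far less reduced in collagen-rich cells. Per cell, without correction for depth, each was higher there than in any other gate. H2-T22 had 3.17 and 3.69 UMIs per cell in CD94-KO and WT, H2-Q4 4.13 and 3.58 and H2-M3 1.73 and 1.43. H2-T22 stood at 66.3 and 75.9 CPM against 92.2 and 91.4 CPM in the immune gates, ratios of 0.719 (0.617 to 0.833) and 0.831 (0.751 to 0.918). H2-Q4 had ratios of 0.672 and 0.611, and H2-M3 of 0.706 and 0.604. H2-T24 had no UMI in the collagen-rich cells of either library, which allows levels of up to 1.05 CPM in CD94-KO, against 0.46 CPM in WT, taking 3 UMIs as the limit that a count of 0 allows. At least 1.5-fold lower were 5 of the 8 genes in CD94-KO, against 7 in WT, with H2-Q4 and H2-M3 crossing the fold in WT alone, where 29% and 30.2% of all genes tested were lower. None of the 8 was higher, where 40.4% and 37.9% of all genes were.

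The 13 listed genes that supply and load peptides had ratios to the immune gates of 0.313 to 1.41 in collagen-rich cells, each nearer to 1 than that of H2-T23. H2-D1, the source of the peptide held by Qa-1, had ratios to the immune gates of 0.643 in CD94-KO, against 0.750 in WT, and B2m of 0.402 and 0.491. Of 13 genes of peptide supply and loading, 10 in CD94-KO, against 9 in WT, were at least 1.5-fold lower, where 29% and 30.2% of all genes were. Among them were the transporter gene Tap1 at ratios of 0.375 and 0.352 and the immunoproteasome gene Psmb9 at 0.361 and 0.398. Nlrc5, the class I transactivator, had ratios of 0.272 and 0.423. The median log2 ratio was -3.6 and -4.1 over the 8 non-classical genes, -1.3 and -1.2 over the 13 loading genes and 0.25 and 0.18 over all genes tested.

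**Figure D2:**
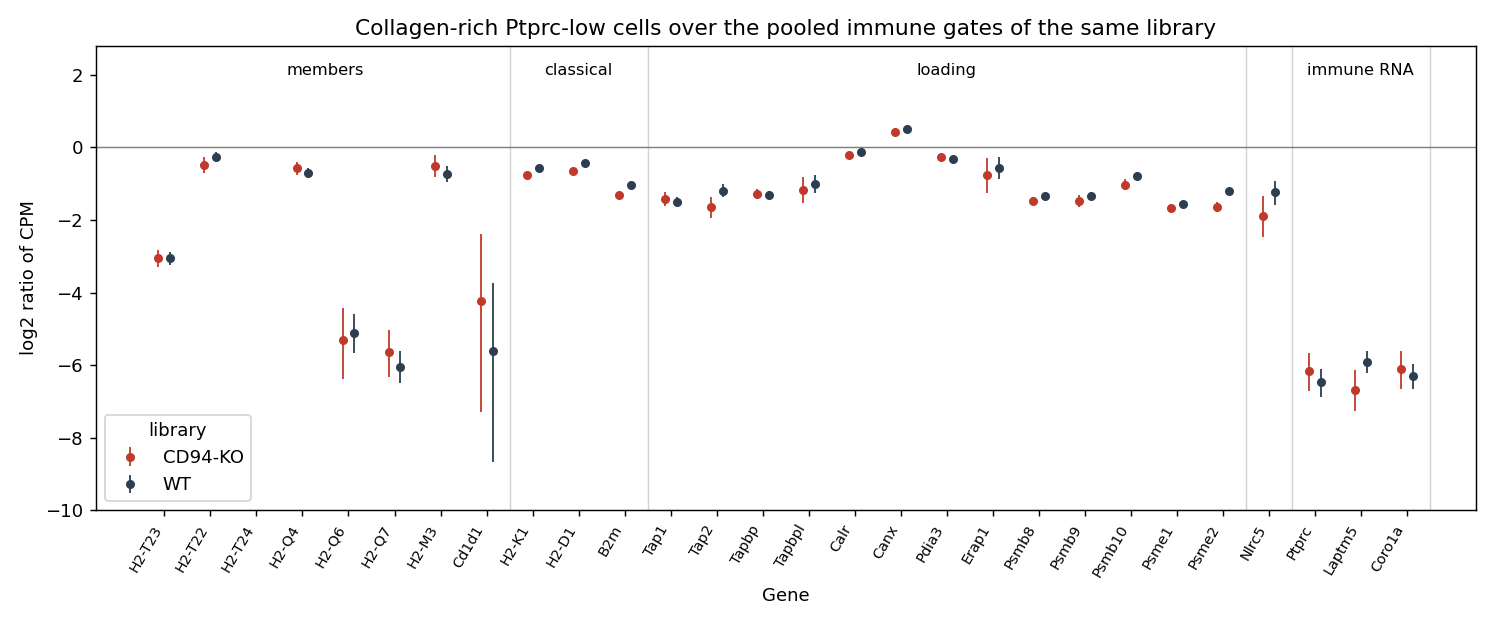
log2 ratio of CPM in collagen-rich cells over the pooled immune gates of the same library (vertical axis) for the measured genes, the classical genes and light chain, loading genes, Nlrc5 and leukocyte genes (horizontal axis), CD94-KO left of WT, with 95% counting intervals. H2-T23 stands at -3.06 in both libraries and H2-Q6, H2-Q7 and Cd1d1 between -4.24 and -6.04, while H2-T22, H2-Q4 and H2-M3 lie between -0.27 and -0.73. H2-T24 is not drawn since it had no UMI in the collagen-rich cells.

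The Q-region genes followed an order of their own, with high levels in lymphocytes and mregDC-like cells and low levels in monocyte-like, macrophage-like and cDC2-like cells. H2-Q7 stood at 1009 CPM in mregDC-like, 1007 in Treg-like, 909 in CD8 T-like, 903 in IL-17 gamma-delta T-like, 851 in CD4 T-like and 809 CPM in NK-like cells of CD94-KO. The same gates had 903, 1254, 802, 1161, 989.5 and 869.5 CPM in WT. Macrophage-like, monocyte-like and cDC2-like cells had 200.2, 174 and 122 CPM in CD94-KO, against 189, 139 and 102 CPM in WT. The lymphoid gates and the myeloid gates just named did not overlap in either library.

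H2-Q6 and H2-Q4 had a like order. H2-Q6 was highest in mregDC-like cells, at 529 CPM in CD94-KO, against 462 CPM in WT, followed by NK-like cells at 355 and 380.3 CPM, and cDC2-like cells had 39.6 and 30.8 CPM. H2-Q4 was highest in mregDC-like cells (327 and 325 CPM) and in IL-17 gamma-delta T-like cells (311 and 318 CPM) and lowest in cDC2-like cells (61.2 and 55.0 CPM). pDC-like cells separated the Qa-2 genes, with H2-Q7 at 790.4 and 847 CPM but H2-Q6 at 54.3 and 66.9 CPM, which is 2.19 and 1.96 times, and 0.387 and 0.401 times, the level in the other immune gates.

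H2-T22 was highest in Treg-like cells, at 221 CPM in CD94-KO, against 221.5 CPM in WT, then in CD4 T-like cells at 161 and 165 CPM, and the intervals of these neighbours overlapped. Macrophage-like and monocyte-like cells had 89.5 and 95.7 CPM in CD94-KO, against 76.9 and 77.7 CPM in WT, and cDC2-like cells 54.0 and 62.7 CPM. IL-17 gamma-delta T-like cells themselves had 88.5 and 78.7 CPM. H2-T24 was sparse, with 350 UMIs over both libraries, and was at most 13.6 CPM in any gate. In monocyte-like cells it stood at 10.3 CPM in CD94-KO, against 7.44 CPM in WT.

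H2-M3 was highest in pDC-like cells, at 100.5 CPM in CD94-KO, against 121 CPM in WT. The intervals overlapped those of the next gate, Treg-like cells in CD94-KO (76.8 CPM) and B-like cells in WT (103 CPM). With mitochondrial and ribosomal protein UMIs among those left out of the total, WT B-like cells were highest (171 CPM). H2-M3 stood between 47.5 and 51.9 CPM in macrophage-like and CD94-KO monocyte-like cells, with 40.5 CPM in WT monocyte-like cells. Cd1d1 was concentrated in mregDC-like cells, at 103 CPM in CD94-KO (151 UMIs) and 133 CPM in WT (118 UMIs). The 10 mregDC-like cells with the most Cd1d1 UMIs held 42.4% of these in CD94-KO, against 62.7% in WT. Cd1d1 had a UMI in 37.6% and 33.6% of mregDC-like cells and in 7.15% and 8.26% of macrophage-like cells. No other gate passed 25.6 CPM, and CD94-KO pDC-like and WT neutrophil-like cells had no UMI, which by the same limit of 3 UMIs allows up to 8.15 and 36.8 CPM. Of 6 genes listed for lipid loading on CD1d, 4 in CD94-KO, against 3 in WT, were at least 1.5-fold lower in collagen-rich cells than in the immune gates, where 29% and 30.2% of all genes were lower. Mttp and Ctsl, 2 of the 6, were higher in both, where 40.4% and 37.9% of all genes were.

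**Figure D3:**
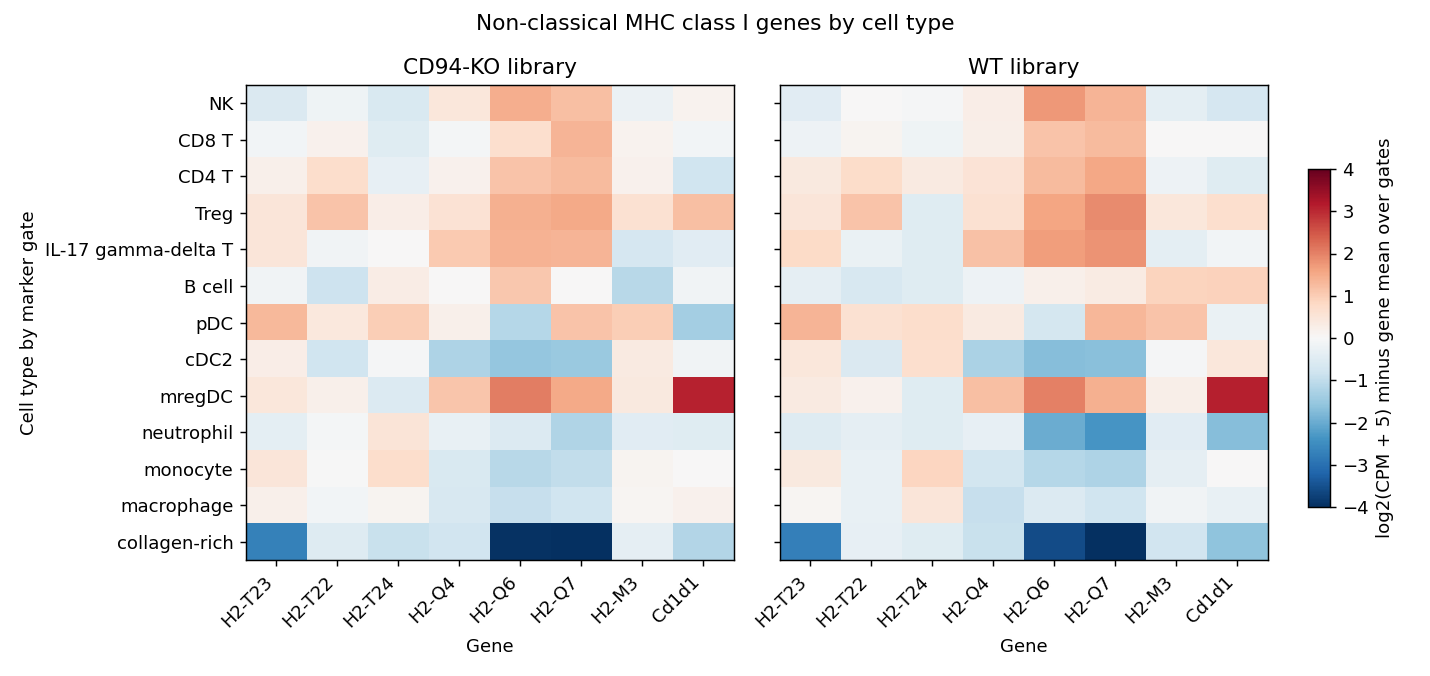
log2(CPM + 5) of each measured gene in each gate (vertical axis) after subtraction of the gene's mean over gates, CD94-KO library left and WT library right. Cd1d1 is highest in mregDC-like cells, and H2-Q4, H2-Q6 and H2-Q7 are high in T-like, NK-like and mregDC-like cells. H2-T23, H2-Q6 and H2-Q7 are lowest in collagen-rich cells in both panels.

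Likeness was taken as Pearson's r of log2(CPM + 5) over 20 points (each gate and library with at least 50 cells), as a description, since points of 1 library share its depth. Of 8563 genes, Atp6v1f (r = 0.970), Il4ra (0.969) and Arpc3 (0.954) were most like H2-T23, but with the collagen-rich points left out (18 points) their r was 0.777, 0.796 and 0.602. H2-T23 had r of 0.835 with Tap1, and 0.780 without the collagen-rich points, while its r with H2-Q7 was 0.727 and -0.03. H2-Q6 and H2-Q7 had r of 0.980, and 0.966 without those points. Most like H2-T22 was Tnfrsf4 (0.895), most like H2-Q4 Mmd (0.946), most like H2-Q6 Stk4 (0.960), most like H2-Q7 Akap13 (0.95), most like H2-M3 Psmb9 (0.853) and most like Cd1d1 Wdr1 (0.918).

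The genes were then compared between the libraries within each gate. Of 104 pairs of gene and gate, 74 had at least 50 UMIs over both libraries, and 2 of the 74 were at least 1.5-fold apart, both higher in CD94-KO. The share of all genes past this fold in either direction was 9.69% in NK-like, 14.7% in CD8 T-like, 17.6% in CD4 T-like, 17.1% in Treg-like, 14.2% in IL-17 gamma-delta T-like, 11.2% in pDC-like, 9.56% in cDC2-like and 11.1% in mregDC-like cells. It was 6.06% in monocyte-like, 6.46% in macrophage-like and 10.5% in collagen-rich cells, and 38% and 41.7% in the small B-like and neutrophil-like gates. With 1 library per genotype no test of genotype is possible, and the intervals below cover counting error only.

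The pairs past the fold rest on few UMIs. Cd1d1 in NK-like cells had 38 UMIs (9.02 CPM) in CD94-KO and 18 UMIs (5.15 CPM) in WT, a ratio of 1.75 with an interval of 0.976 to 3.26. H2-Q6 in B-like cells had 41 UMIs (270.0 CPM) in 25 CD94-KO cells and 15 UMIs (128 CPM) in 11 WT cells, a ratio of 2.11 (1.14 to 4.10). Neither pair was past the fold when each cell was weighed the same, but 4 other pairs were, among them H2-T23 (2.15) and H2-Q7 (3.11) in collagen-rich cells.

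The ratio of H2-T23 in CD94-KO over WT was above 1 in 10 of 13 gates and ran over 0.91 to 1.30 by pooled UMIs. Macrophage-like cells had 416 CPM in CD94-KO, against 335 CPM in WT, a ratio of 1.24 (1.18 to 1.30), monocyte-like cells a ratio of 1.19 (1.12 to 1.26) and mregDC-like cells a ratio of 1.20 (1.05 to 1.36). In these gates the interval lay above 1, and in the other 10 gates it held 1. NK-like cells had a ratio of 1.03 (0.935 to 1.13), cDC2-like cells 0.994 (0.9 to 1.1) and pDC-like cells 1.08 (0.928 to 1.25). Collagen-rich cells had 1.17 (0.947 to 1.43), on 145 CD94-KO and 283 WT UMIs, but 2.15 with each cell weighed the same (93.2 against 43.4 CPM), which is past the fold.

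Interferon-gamma targets moved with the libraries as well. In macrophage-like cells 3 of 11 listed targets (Iigp1, Irgm1 and Socs1) were at least 1.5-fold higher in CD94-KO, where 2.92% of all genes were higher, in monocyte-like cells 4 of 11, where 3.79% were, and in NK-like cells 7 of 11, where 7.95% were. None was lower in these gates, and their part in the H2-T23 ratios was not tested.

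The other genes gave ratios on both sides of 1. H2-T22 had 1.16 (1.05 to 1.29) in macrophage-like and 1.23 (1.07 to 1.42) in monocyte-like cells but 0.867 (0.746 to 1.01) in NK-like cells. H2-Q4 had 1.30 (1.17 to 1.45) in macrophage-like and 1.23 (1.11 to 1.37) in NK-like cells. H2-Q7 had 1.25 (1.12 to 1.39) in monocyte-like cells and 1.12 (1.02 to 1.22) in mregDC-like cells, but 0.778 (0.681 to 0.889) in IL-17 gamma-delta T-like, 0.803 (0.702 to 0.918) in Treg-like, 0.860 (0.756 to 0.976) in CD4 T-like and 0.931 (0.886 to 0.977) in NK-like cells. H2-M3 lay between 0.829 and 1.28 over 10 gates, and Cd1d1 in mregDC-like cells had 0.770 (0.602 to 0.989). That Cd1d1 ratio rests on few cells, since 10 cells held 42.4% of its UMIs there in CD94-KO and 62.7% in WT.

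**Figure D4:**
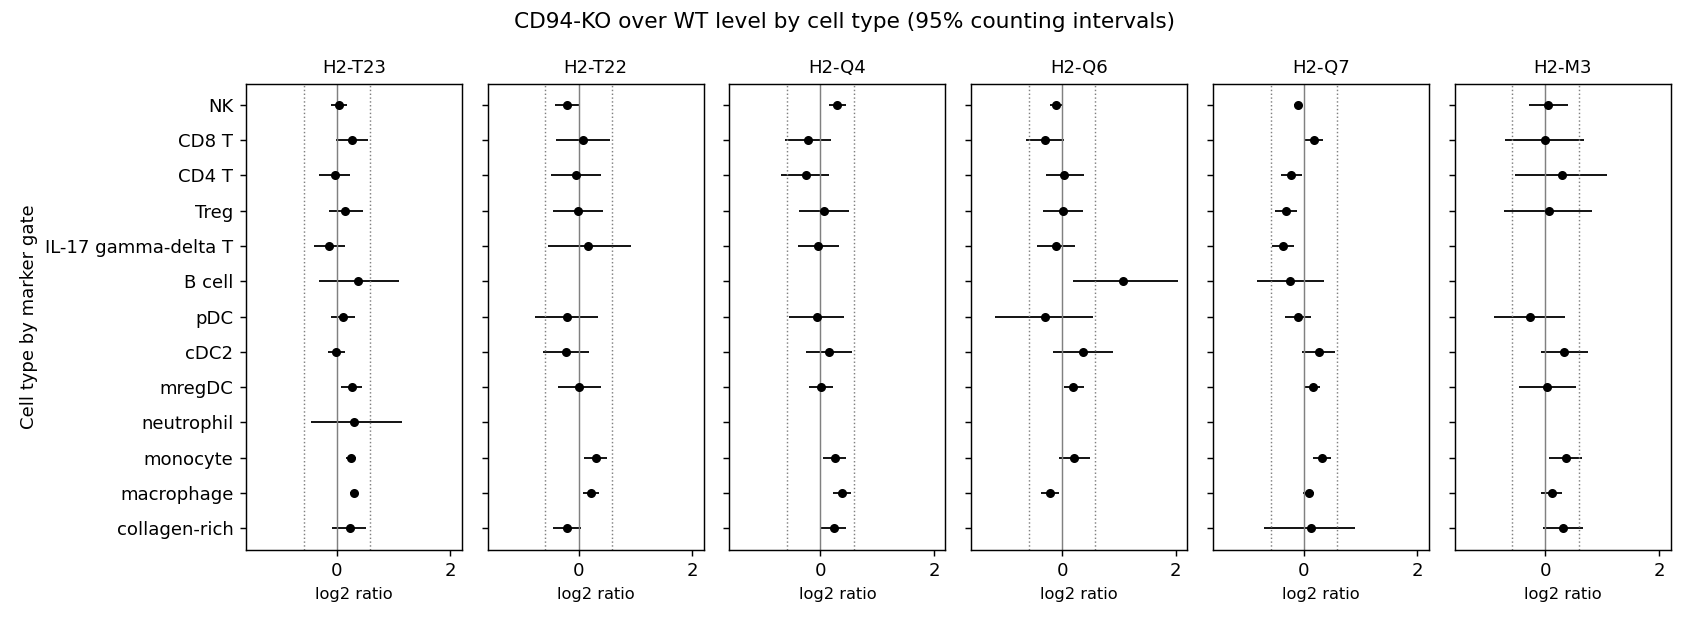
log2 ratio of CD94-KO over WT (horizontal axis) for 6 genes in each gate (vertical axis), with 95% counting intervals, for pairs with at least 50 UMIs, and dotted lines at 1.5-fold. Of the points drawn, H2-Q6 in B-like cells (ratio 2.11) lies past a dotted line.

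Of H2-K1, H2-D1 and B2m, none was at least 1.5-fold apart in 12 of the 13 gates, and H2-D1 was higher in CD94-KO in the neutrophil-like gate, at 2572 against 1693 CPM. Of 13 loading genes, none with enough UMIs was past the fold in 9 of the 13 gates, among them NK-like, monocyte-like, macrophage-like and collagen-rich cells. Tap2 was higher in CD94-KO in CD8 T-like cells and Tap1 in CD4 T-like cells, and Psmb9 was lower in Treg-like cells. In the small B-like gate 5 of 8 measured loading genes (Calr, Canx, Pdia3, Psmb8 and Psme2) were lower. In that gate 38% of all genes were past the fold in either direction. Among the Qa-1 receptor genes in NK-like cells, Klrd1 was past the fold, and Klrc1 had a ratio of 0.890 (0.795 to 0.996).

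H2-T23 also varied among the cells of a gate. Cells of a gate were ranked by the summed UMIs per 10000 of 11 interferon-gamma targets (Gbp2, Gbp3, Gbp4, Gbp5, Irgm1, Igtp, Iigp1, Cxcl9, Cxcl10, Socs1 and Cd274) and split into tertiles, 3 bins of like cell number. In macrophage-like cells the lowest, middle and highest tertiles had 214, 434 and 601 CPM of H2-T23 in CD94-KO, against 206, 352 and 440.0 CPM in WT. The highest tertile was 2.81 times the lowest in CD94-KO (2.61 to 3.02) and 2.14 times in WT (1.92 to 2.38). The libraries overlapped in the lowest tertile and lay apart in the middle and highest tertiles. Tertiles were cut within each library, so those of the same name need not hold cells of like target level. The median log2 ratio of the targets, CD94-KO over WT, was 0.42 in macrophage-like cells.

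Monocyte-like cells gave a ratio of highest to lowest tertile of 1.93 (1.76 to 2.11) in CD94-KO, against 1.82 (1.60 to 2.07) in WT. cDC2-like cells gave 2.30 (1.91 to 2.78) and 1.48 (1.24 to 1.78). NK-like cells gave 1.69 (1.45 to 1.97) and 1.40 (1.17 to 1.67). mregDC-like cells gave 1.53 (1.27 to 1.85) in CD94-KO, against 1.08 (0.813 to 1.43) in WT. Actb, a gene outside these lists, gave 1.18 and 1.21 in macrophage-like cells and 0.943 and 1.17 in NK-like cells. Psap, listed for lipid loading on CD1d, gave 1.15 and 1.17 in macrophage-like cells. In NK-like cells Psap gave 2.97 (2.59 to 3.42) and 2.44 (2.09 to 2.86), more than H2-T23. The spread over NK-like tertiles is thus not particular to H2-T23, and its cause was not tested. Ranking by expressed genes also ranks cells by state, so these are descriptions of cells within 1 library each.

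By pooled UMIs, collagen-rich cells had the widest H2-T23 spread over tertiles of the 6 gates ranked. The lowest, middle and highest tertiles had 19.4, 25.8 and 114 CPM in CD94-KO, against 23.02, 25.6 and 91.7 CPM in WT, ratios of 5.87 (3.57 to 10.2) and 3.98 (2.93 to 5.47) for the highest over the lowest. The highest tertile still lay below every immune gate. Weighing each cell the same gave ratios of 2.0 in CD94-KO, against 3.25 in WT, and in CD94-KO this was below macrophage-like (2.8) and cDC2-like cells (2.16). H2-T22 gave 4.03 and 2.77 and Tap1 6.65 and 6.31 in the same tertiles.

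H2-T22, which bears the motif of interferon regulatory factors, gave 3.04 (2.57 to 3.60) and 2.16 (1.72 to 2.73) in macrophage-like cells, and B2m 1.98 and 1.56. Other windows lack the exact letters of that motif but hold the near match. Of these genes, H2-Q4 gave 2.54 and 1.80, H2-Q7 2.36 and 1.40, H2-Q6 2.0 and 1.31 and H2-D1 1.68 and 1.42. H2-M3, which also holds the gamma-activated site letters, gave 1.66 (1.37 to 2.02) and 1.16 (0.887 to 1.51). Among H2-T23, H2-T22 and the genes just listed, H2-T22 and H2-T23 had the highest ratios and H2-M3 the lowest in macrophage-like cells of both libraries. The CD94-KO interval of H2-Q4 was 2.17 to 2.97 and its WT interval 1.44 to 2.25, which overlapped those of H2-T22 and H2-T23. H2-T24 gave 2.71 (1.27 to 6.27) and 5.73 (1.98 to 22.7) on few UMIs. H2-T22 and H2-T23 were also highest of these genes in monocyte-like cells and in CD94-KO NK-like cells. In WT NK-like cells H2-Q4 gave 1.54, H2-T23 1.40 and H2-T22 1.30. In cDC2-like cells H2-Q4 gave 3.13 and 1.80, H2-T22 3.05 and 1.45 and H2-T23 2.30 and 1.48. Whether either motif bears on these ratios was not tested. In mregDC-like cells the Qa-2 genes ran the other way, H2-Q7 at 0.828 (0.724 to 0.946) and 0.507 (0.415 to 0.618) and H2-Q6 at 0.683 (0.562 to 0.828) and 0.505 (0.384 to 0.657).

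**Figure D5:**
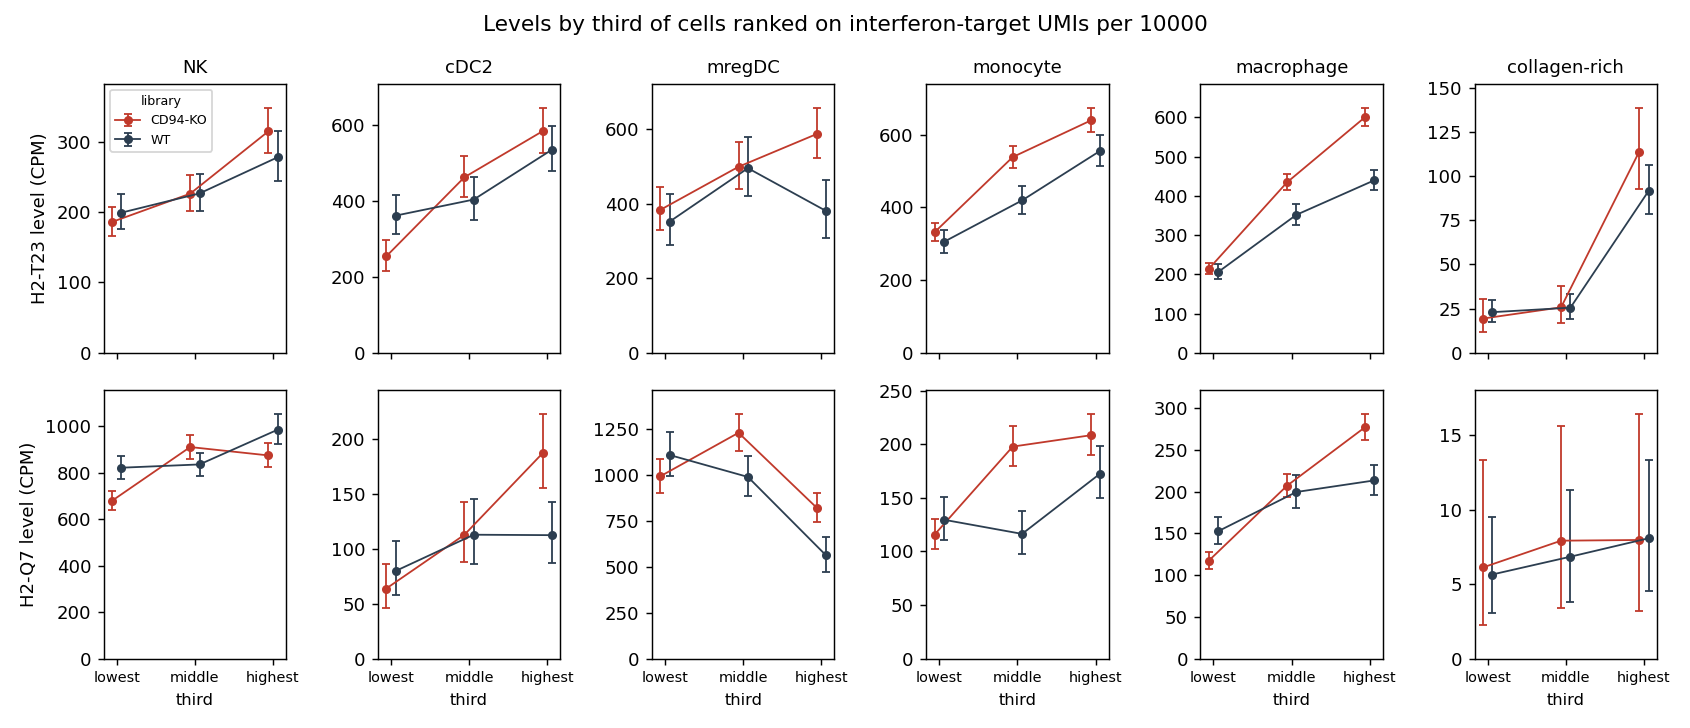
Levels in CPM (vertical axis) of H2-T23 (upper row) and H2-Q7 (lower row) in tertiles of cells ranked on interferon-target UMIs per 10000 (horizontal axis) in 6 gates, CD94-KO and WT libraries, with exact Poisson 95% intervals. H2-T23 is highest in the highest tertile in every panel but WT mregDC-like cells, and in collagen-rich cells reaches 114 and 91.7 CPM there, while H2-Q7 in mregDC-like cells is lowest in the highest tertile, with ratios of 0.828 and 0.507 to the lowest.

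Macrophage-like cells were also split by at least 3 UMIs of Arg1, an arginase gene of suppressive macrophages, or of Nos2 and Cxcl9, genes of interferon-activated macrophages. H2-T23 stood at 249.8 CPM in CD94-KO, against 194 CPM in WT cells with Arg1 alone, and at 594 and 530.5 CPM in cells with Nos2 or Cxcl9 alone. Cells with both had 447 and 334 CPM and cells with neither 496 and 407 CPM. CD94-KO was higher than WT in each of the 4 states, with overlapping intervals in the state with Nos2 or Cxcl9 alone, and the level in Arg1 cells was the lowest in both libraries. H2-T22 had 54.5 and 52.5 CPM in Arg1 cells against 126 and 120.0 CPM in Nos2 or Cxcl9 cells of CD94-KO and WT.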

How the data were processed

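The deposited files are gene by barcode matrices of whole-number UMI counts, 1 per library, and the file headers name Cell Ranger 5.0.0 as the software. The submitters' processing notes name mm10 and Seurat 4.0 with no role. Settings of the count step are not given in the sources used here. The genes and lists were chosen with earlier results of these data known.

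Barcodes were kept from 500 UMIs and 300 detected genes upward if mitochondrial UMIs were below 10%. Gates required marker UMI minimums, settled after the markers' distributions were seen. The NK-like gate needed 3 UMIs over 2 markers and at most 1 Cd3 UMI, the T-like gates 2 Cd3 UMIs, and the collagen-rich gate 5 UMIs over 3 markers and at most 1 Ptprc UMI per 10000 UMIs. Left out as mixed were 248 barcodes in CD94-KO and 264 in WT, and 1181 and 2002 were given no gate. Mixed barcodes met several gates, or held the collagen markers with Ptprc above the limit. Barcodes that passed the collagen-rich rule stayed in that gate even where they met another. Meeting the monocyte-like rule as well did not make a barcode mixed. Scrublet called 0 CD94-KO and 1 WT doublets and was therefore not relied on. UMIs were summed per gate and library and divided by the gate's total (CPM), with exact Poisson intervals for levels and exact conditional binomial intervals for ratios, both at 95%. These cover counting error only. A ratio needed 50 UMIs and was called at 1.5-fold. The rule for named genes was the 9 genes, the listed pathway genes by count, and the 3 genes with the highest correlation. There is 1 library per genotype, so no test was made. Interval and ratio scripts were tested on simulated data. Python 3.11.15, NumPy 2.4.6, SciPy 1.17.1, pandas 2.3.3 and scanpy 1.11.5 were used.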

Additional observations from a re-analysis of the deposited data

How the results depend on the processing

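No paired analysis was possible because each genotype has 1 library. H2-T23 was highest in pDC-like and lowest in collagen-rich cells of both libraries under each alternative run for the order. The ratio of collagen-rich cells to immune gates was 0.225 in CD94-KO, against 0.12, when each cell was weighed the same (the highest single cell had 1420 CPM), and 0.117 to 0.130 in WT over the alternatives. The macrophage-like ratio of highest to lowest tertile was 2.8 to 2.84 in CD94-KO, against 2.0 to 2.15 in WT. The number of gene and gate pairs at least 1.5-fold apart was 1 with the marker minimum raised 2 times (without Cd1d1 in NK-like cells), 1 with a mitochondrial limit of 5% (without H2-Q6 in B-like cells) and 4 with each cell weighed the same, against 2. Those 4, none of them among the 2, were H2-T23 (2.15) and H2-Q7 (3.11) in collagen-rich cells and H2-T24 (1.52) and Cd1d1 (0.637) in monocyte-like cells. In collagen-rich cells the median H2-T23 level per cell was 26.9 CPM in CD94-KO, against 21.1 CPM in WT. H2-Q7 rests there on 21 CD94-KO and 44 WT UMIs. The cause of these shifts was not tested. With TMM scaling within the gate 3 pairs were past the fold, with H2-T23 in neutrophil-like cells (1.66) added, and the scaling shift was -0.42 (log2) in neutrophil-like cells. A collagen-rich gate with at most 1 Ptprc UMI and no other marker hit, chosen after seeing the data, gave 2 pairs. Depth limits H2-T24 and Cd1d1, which had under 50 UMIs in most gates, and all values of B-like and WT neutrophil-like cells.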

Other observations

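Other class I-like genes, listed with the non-classical genes, had orders of their own. H2-Q10, whose leader codes for the same 8 residues as that of H2-D1, was highest in neutrophil-like cells, at 206 CPM in CD94-KO (49 UMIs in 64 cells) and 269.9 CPM in WT (22 UMIs in 14 cells), with a UMI in 40.6% and 42.9% of them. The exact Poisson intervals were 153 to 273 and 169 to 409 CPM, and no other gate passed 19.7 CPM for H2-Q10. Its last 500 bases shared no 90-base window with another gene.

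Raet1e, which encodes a ligand of the activating receptor NKG2D, was highest in collagen-rich cells, at 30.4 CPM in CD94-KO, against 33.3 CPM in WT, 9.43 and 7.58 times its level in the pooled immune gates, where 40.4% and 37.9% of all genes tested were at least 1.5-fold higher. By CPM, collagen-rich cells thus combined the lowest H2-T23 level with the highest Raet1e level of the gates. Mr1, which presents vitamin B metabolites to MAIT cells, was 2.21 and 1.85 times as high there, on 15 and 28 UMIs. Fcgrt, the neonatal Fc receptor gene, was highest in cDC2-like cells (179 and 160 CPM in CD94-KO and WT), as was Hfe, a regulator of iron uptake (105.5 and 66.9 CPM).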
